A study of Mus musculus with 6 samples.

Results

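Gangliosides are sialic acid-bearing glycosphingolipids of the plasma membrane, and the 9 genes described here encode the Golgi enzymes that build them from ceramide. The genes are Ugcg, B4galt5, B4galt6, St3gal5, B4galnt1, St8sia1, B3galt4, St3gal2 and St8sia5. They were chosen by symbol for their place in the pathway and not by their values, though earlier results of these data were known. Each symbol stands on exactly 1 row, so 9 of the 55414 genes in the deposited table are covered. RNA was sequenced from mouse hippocampus in 6 libraries, 3 of CerM-treated and 3 of vehicle-treated mice. What CerM stands for is not written out in the labels, and they give no dose, duration, strain, sex or age. The series title ties ceramides from a disturbed gut microbiota to corticosterone-induced depression and mitochondria. The sample titles call the libraries biological replicates without saying whether animals were pooled or shared, and p-values therefore speak only to the variation among these libraries, which may be technical.

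Synthesis begins when glucose is placed on ceramide and goes on with galactose, which yields lactosylceramide. The first sialic acid makes GM3, and further sialic acid on GM3 opens the b-series through GD3. Addition of N-acetylgalactosamine and galactose then extends both series towards GM1, GD1a, GD1b and GT1b, the main gangliosides of the mature mammalian brain, where they are concentrated on neurons and take part in axon-myelin contact. Because the pathway consumes ceramide, its genes sit next to the lipid named in the series title.

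All 9 genes were above 4 TPM in every library, and none passed the test between CerM and vehicle. Levels are given as TPM (a transcript abundance scaled to the library total), a unit already corrected for transcript length, so levels of different genes can be set side by side. All 9 exceeded the mean of 1 TPM required for testing. Differences were tested with limma on log2(TPM + 1) over 14916 genes, and a gene was called at a Benjamini-Hochberg adjusted p below 0.05. Of the 9 genes 0 were called, against 0.00% of all tested genes. At an unadjusted p below 0.05 the limma test had 0 of the 9 genes, against 2.70% of all tested genes. The smallest adjusted p among the 9 was 0.989 and the largest was 0.999. TPM carries no read depth, so counting error cannot be given.

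Several libraries differed in markers of other tissues. Prox1 (8.53 to 25.22 TPM) and Neurod6 (134.73 to 226.67 TPM), from the list of hippocampal neuron markers, were present in every library. Their presence alone does not settle the region a library came from. The 6 neocortex markers summed to 110.1 to 116.0 TPM in the CerM libraries, against 266.6 TPM in vehicle replicate 1 and 113.1 to 114.8 TPM in the other vehicle libraries. The 7 hippocampal neuron markers summed to 471.0 to 528.3 TPM in the CerM libraries. The sums were 326.6 TPM in vehicle replicate 1 and 525.1 to 556.1 TPM in the other vehicle libraries. Neurod6 had the highest level of that list. Wfs1 was not lowest in vehicle replicate 1, at 59.9 TPM against 51.84 TPM in CerM replicate 1, while every other marker of the list was lowest there. Choroid plexus markers summed to 9304 and 10940 TPM in CerM replicates 1 and 3 and to 15710 TPM in vehicle replicate 3, against 303.2 TPM in CerM replicate 2 and 252.7 and 260.2 TPM in vehicle replicates 1 and 2. Fat tissue markers summed to 663.1 TPM in CerM replicate 3 and to between 0.45 and 1.78 TPM elsewhere. All 5 choroid plexus markers were above 0 in every library, and of the 5 fat markers Cfd was listed at 0 in 5 libraries, Cidec in 3 and Adipoq in 2. The part of this tissue content in the values below was not tested, and in bulk tissue fewer cells of a type and less RNA per cell cannot be told apart.

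The mean levels of the 9 genes spanned a 20.8-fold range and kept nearly the same order in all libraries. St3gal5, the GM3 synthase, had the highest mean over the 6 libraries, 101.2 TPM, which exceeded that of 90.2% of tested genes. B4galnt1 followed at 87.92 TPM, then St3gal2 at 43.81, B4galt6 at 42.66, St8sia5 at 33.51, Ugcg at 32.63, B4galt5 at 19.79 and St8sia1 at 11.53 TPM. B3galt4, which adds the terminal galactose of GM1, had the lowest mean, 4.86 TPM, above only 25.4% of tested genes.

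Neighbours in this order were not always distinct. St3gal5 exceeded B4galnt1 in 5 of 6 libraries, St3gal2 exceeded B4galt6 in 5 of 6, and St8sia5 exceeded Ugcg in 4 of 6, and the ranges of each of these pairs overlapped. The other 5 neighbouring pairs kept their order in 6 of 6 libraries with ranges that did not overlap. B4galnt1 shares exonic bases with Slc26a10 on the opposite strand, which was listed at a mean of 3.22 TPM. St8sia1 and St8sia5 overlap the noncoding genes Gm7457 and Gm7276 on the opposite strand, at means of 0.12 and 0.97 TPM. Whether counting used strand is not given in the sources used here, so reads of such partners cannot be told apart.

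RefSeq promoter sequences (build GRCm38.p6, 250 bases before to 50 after the gene start) were matched for 5 of the 9 genes, and 3 are shown here to set the highest gene, the entry enzyme and the lowest gene beside each other. Capitals mark GGGCGG or its reverse complement CCGCCC, the GC box.
St3gal5, chr6:72097358-72097657, plus strand: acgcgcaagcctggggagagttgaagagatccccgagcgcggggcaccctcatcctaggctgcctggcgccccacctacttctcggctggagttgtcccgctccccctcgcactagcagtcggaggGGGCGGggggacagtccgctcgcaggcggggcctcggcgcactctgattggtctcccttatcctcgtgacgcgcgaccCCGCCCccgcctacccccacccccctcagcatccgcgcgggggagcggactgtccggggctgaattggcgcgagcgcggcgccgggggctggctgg
Ugcg, chr4:59189300-59189599, plus strand: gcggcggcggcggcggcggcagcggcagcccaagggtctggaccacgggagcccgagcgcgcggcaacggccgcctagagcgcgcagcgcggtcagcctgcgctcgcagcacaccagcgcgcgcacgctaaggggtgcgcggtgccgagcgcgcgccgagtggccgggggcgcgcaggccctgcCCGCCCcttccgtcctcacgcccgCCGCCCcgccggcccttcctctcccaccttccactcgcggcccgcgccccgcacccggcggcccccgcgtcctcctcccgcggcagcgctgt
B3galt4, chr17:33951439-33951738, minus strand, written in the direction of transcription: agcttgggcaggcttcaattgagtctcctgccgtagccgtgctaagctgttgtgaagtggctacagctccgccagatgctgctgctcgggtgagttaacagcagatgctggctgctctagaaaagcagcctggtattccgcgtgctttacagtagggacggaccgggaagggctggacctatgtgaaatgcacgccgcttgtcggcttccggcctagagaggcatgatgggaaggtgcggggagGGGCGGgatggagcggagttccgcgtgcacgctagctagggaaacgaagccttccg
The GC content of these windows was 72.7% for St3gal5, 81.3% for Ugcg and 59.7% for B3galt4, against a median of 52.7% over 32851 mouse promoter windows of 300 bases. St3gal5 and Ugcg had 2 GC boxes each and B3galt4 had 1, counted on both strands. Of all windows 35.7% held at least 1 such match. The letters TATAAA, on either strand, were in none of these 3 windows and in 13.6% of all windows. CCAAT, on either strand, occurred at 2 places for St3gal5, at 0 for Ugcg and B3galt4, and in 37.4% of all windows, and no match of these motifs overlapped another. B4galt5 held 7 GC boxes in its window, of which 2 share 1 base, and St8sia1 held 1. These matches describe letters only.

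Ugcg, the glucosylceramide synthase that commits ceramide to this pathway, had the smallest spread of the 9 genes. It had 32.62, 32.07 and 30.74 TPM in CerM replicates 1 to 3, against 34.10, 33.27 and 32.99 TPM in vehicle replicates 1 to 3. All CerM libraries lay below all vehicle libraries, with a gap of 0.37 TPM between the nearest pair. The means were 31.8 ± 0.97 TPM in CerM and 33.5 ± 0.58 TPM in vehicle (SD, n = 3 each). The log2 fold change of CerM over vehicle was −0.07 ± 0.09 (SE), with a 95% confidence interval of −0.28 to 0.14 and a limma adjusted p of 0.989. It was −0.05 without CerM replicate 3. Ugcg was the only 1 of the 9 genes whose groups did not overlap, and 7.30% of all tested genes had groups that did not overlap (4.04% lower in CerM, 3.26% higher), so a count of 1 in 9 is close to that background.

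The pair of lactosylceramide synthases lay slightly higher in CerM, within the spread of the libraries. B4galt5 is the broadly expressed enzyme and had 19.26, 21.33 and 20.53 TPM in CerM, against 18.77, 19.98 and 18.89 TPM in vehicle. The groups overlapped, because vehicle replicate 2 exceeded CerM replicate 1. B4galt6, the enzyme of the pair that is prominent in brain, had 46.26, 46.10 and 41.42 TPM in CerM, against 37.64, 41.88 and 42.64 TPM in vehicle. CerM replicate 3 lay between vehicle replicates 1 and 2, and vehicle replicate 1 was the lowest of all libraries for both genes. Log2 fold changes were 0.08 ± 0.10 (SE) for B4galt5 and 0.13 ± 0.10 for B4galt6, with 95% confidence intervals of −0.15 to 0.31 and −0.10 to 0.36. The value for B4galt6 was 0.07 without vehicle replicate 1 and 0.05 with sample weights. That for B4galt5 was 0.05 without CerM replicate 2 and 0.03 with sample weights. B4galt6 supplied 68.6% ± 1.88 of the summed TPM of both genes in CerM libraries, against 67.9% ± 1.30 in vehicle libraries (SD, n = 3 each).

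St3gal5, which adds the first sialic acid and so makes GM3, was lower on average in CerM but not beyond error. It had 93.05, 95.64 and 101.89 TPM in CerM, against 115.49, 98.24 and 102.69 TPM in vehicle. CerM replicate 3 lay above vehicle replicate 2, and the highest value by a wide margin was that of vehicle replicate 1. The means were 96.9 ± 4.55 TPM in CerM and 105.5 ± 8.96 TPM in vehicle (SD, n = 3 each). The log2 fold change was −0.12 ± 0.09 (SE), with a 95% confidence interval of −0.34 to 0.10 and a limma adjusted p of 0.989. Without vehicle replicate 1, the library with the raised neocortex markers, it was −0.05, and with sample weights it was −0.01.

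The enzymes at the branch point after GM3 gave the smallest and the largest difference of the 9. B4galnt1, which makes GM2 and GD2 and so opens the complex gangliosides, had 77.40, 103.12 and 84.44 TPM in CerM, against 85.95, 88.84 and 87.76 TPM in vehicle. CerM libraries lay on both sides of the vehicle libraries, which were close together, and the means were 88.3 ± 13.3 TPM in CerM and 87.5 ± 1.46 TPM in vehicle (SD, n = 3 each). Its log2 fold change was 0.00 ± 0.12 (SE), with a 95% confidence interval of −0.27 to 0.28, and its sign turned without CerM replicate 2, at −0.11, and without vehicle replicate 1, at −0.01. With median-ratio scaling it was −0.03 and with sample weights −0.07.

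St8sia1, the GD3 synthase that opens the b-series, had 11.08, 14.82 and 11.05 TPM in CerM, against 8.36, 11.13 and 12.72 TPM in vehicle. CerM replicate 2 was highest and vehicle replicate 1 lowest, and the other 4 libraries lay between them in mixed order. The means were 12.3 ± 2.17 TPM in CerM and 10.7 ± 2.21 TPM in vehicle (SD, n = 3 each). The log2 fold change was 0.19 ± 0.19 (SE), the largest of the 9, with a 95% confidence interval of −0.25 to 0.62 and a limma adjusted p of 0.989. It was 0.03 without vehicle replicate 1, 0.06 without CerM replicate 2, 0.31 without vehicle replicate 3 and 0.04 with sample weights. Those same libraries had the lowest and highest summed level of 6 oligodendrocyte markers, at 6060, 6953 and 6012 TPM in CerM replicates 1 to 3 and 3807, 5834 and 6634 TPM in vehicle replicates 1 to 3. The 5 astrocyte markers showed the same extremes, with sums of 582.5, 769.9 and 654.7 TPM in CerM and 441.3, 598.4 and 701.1 TPM in vehicle. The part of oligodendrocyte and astrocyte content in the St8sia1 values was not tested.

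For the 3 enzymes that finish the chains, CerM and vehicle libraries overlapped as well. B3galt4, the GM1 and GD1b synthase, had 4.63, 5.43 and 4.95 TPM in CerM, against 5.09, 4.02 and 5.04 TPM in vehicle. Vehicle replicate 2 was the lowest library, and the other 2 vehicle values lay among those of CerM. St3gal2, a sialyltransferase that makes GD1a and GT1b, had 42.74, 51.37 and 42.41 TPM in CerM, against 39.57, 43.84 and 42.92 TPM in vehicle. CerM replicate 2 stood above the rest, while the other 2 CerM libraries lay within the vehicle range. St8sia5, which adds further sialic acid to form highly sialylated species, had 30.32, 36.56 and 29.90 TPM in CerM, against 36.92, 33.30 and 34.08 TPM in vehicle. CerM replicates 1 and 3 were below every vehicle library, and CerM replicate 2 was within the vehicle range. Log2 fold changes were 0.07 ± 0.15 (SE) for B3galt4, 0.11 ± 0.11 for St3gal2 and −0.11 ± 0.11 for St8sia5. The sign for B3galt4 turned without vehicle replicate 2 and with quantile normalization, each at −0.02, and that for St3gal2 with sample weights, at −0.005. B3galt4 ranged up to 0.12 with other single libraries left out (CerM replicate 1, vehicle replicate 1 or vehicle replicate 3), was 0.02 without CerM replicate 2 and was 0.19 with sample weights. St3gal2 was 0.02 without CerM replicate 2 and 0.06 without vehicle replicate 1. St8sia5 was −0.20 without CerM replicate 2, and −0.07, −0.06 and −0.07 without CerM replicate 1, CerM replicate 3 and vehicle replicate 1. The 95% confidence intervals were −0.28 to 0.43, −0.15 to 0.36 and −0.37 to 0.16 in that order.

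**Figure D1:**
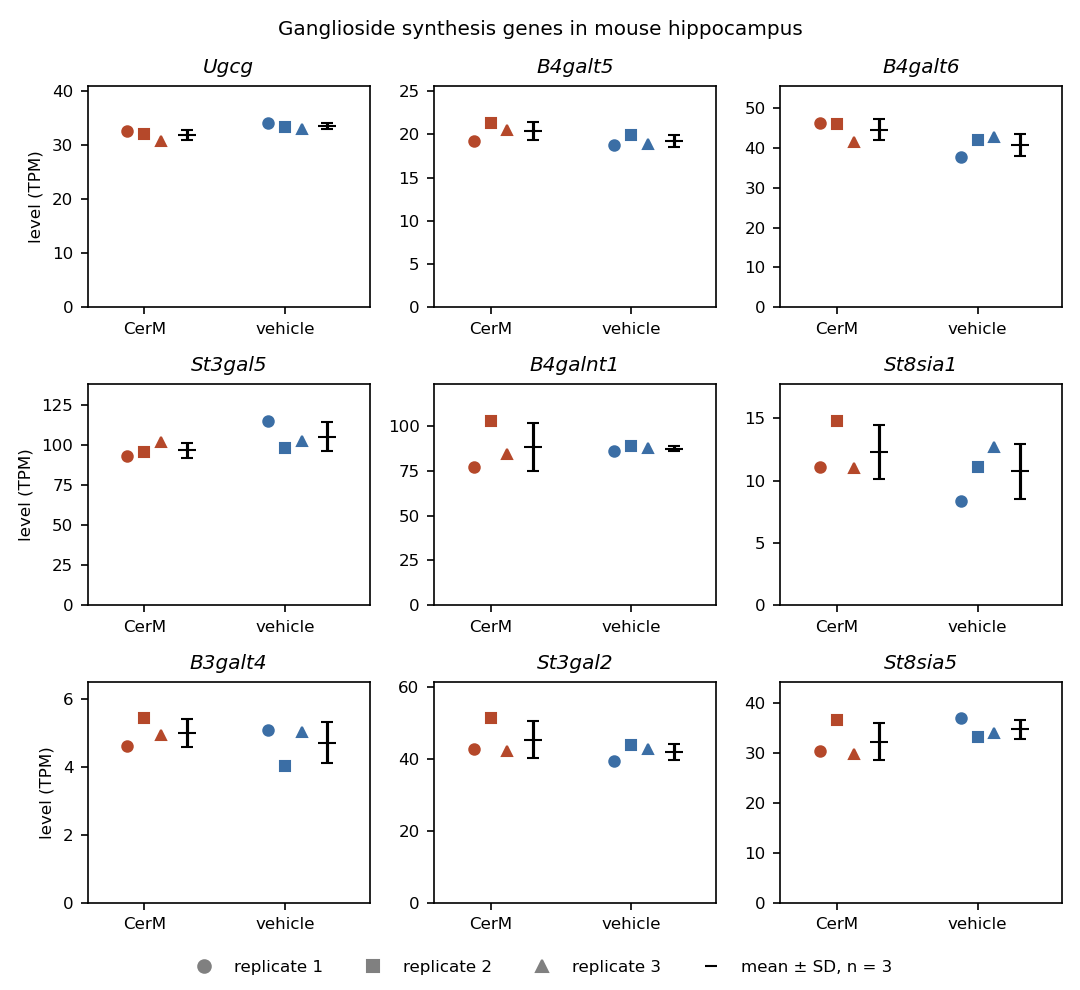
Level in TPM (vertical axis, from 0) of the 9 genes in 3 CerM libraries (red, left) and 3 vehicle libraries (blue, right), with marker shape giving the replicate number and black bars the mean ± SD. The groups overlap in every panel except that of Ugcg, where the CerM libraries reach 32.62 TPM and the vehicle libraries start at 32.99 TPM.

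The confidence intervals set how large a difference could have gone unseen. For 9 of the 9 genes the 95% interval of the limma fit excluded a 2-fold difference of TPM + 1, and for 8 of the 9 it excluded a 1.5-fold difference. The exception was St8sia1, whose interval reached 1.54-fold. Among all tested genes the interval excluded 2-fold for 13449 of 14916 and 1.5-fold for 9506. The low level of B3galt4 means that its interval bounds TPM itself less tightly than TPM + 1. Of the 9 genes 6 lay above 0 and 3 below, the median on the log2 scale being 0.07, while 58.8% of all tested genes lay above 0 with a median of 0.03. The median size of the difference, regardless of sign, was 0.11 for the 9 genes and 0.11 for all tested genes.

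**Figure D2:**
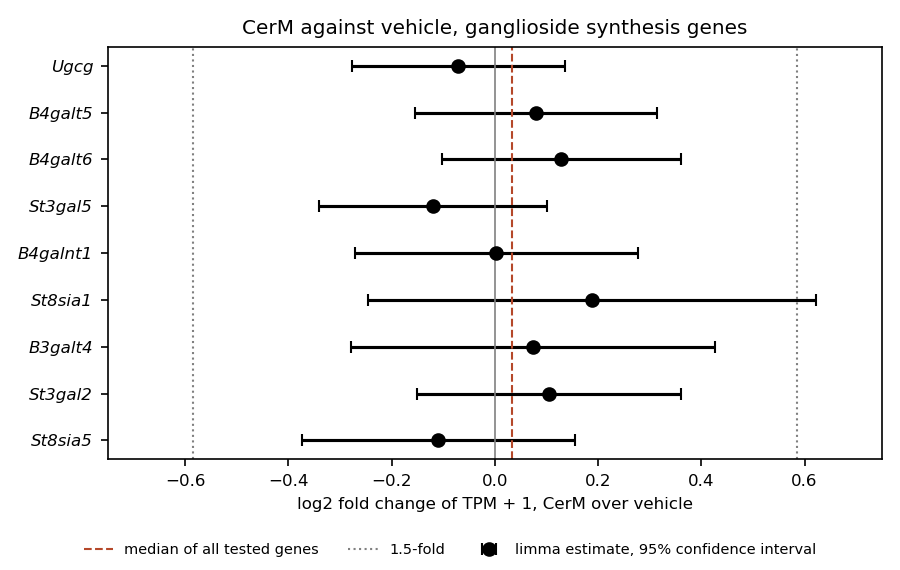
Log2 fold change of TPM + 1, CerM over vehicle (horizontal axis), for the 9 genes in pathway order, with points at the limma estimate and bars for the 95% confidence interval. Every bar crosses 0, and only that of St8sia1, reaching 0.62, passes the dotted 1.5-fold line.

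Ratios of enzymes within a library do not depend on how libraries are scaled against each other, and 4 were compared. The ratio of B4galt6 to B4galt5 was 2.40, 2.16 and 2.02 in CerM replicates 1 to 3, against 2.01, 2.10 and 2.26 in vehicle replicates 1 to 3. The difference of the mean log2 ratios, CerM minus vehicle, was 0.05 (two-sided exact permutation p = 0.6). The ratio of St3gal5 to Ugcg sets the transcript of the GM3 synthase against that of the entry enzyme, and says nothing of lipid made. It was 2.85, 2.98 and 3.31 in CerM, against 3.39, 2.95 and 3.11 in vehicle, with a difference of −0.05 (exact permutation p = 0.6). Both ratios overlapped between the groups, and their values lay between 2.01 and 3.39. Each difference turned sign without 1 library, at −0.02 for the first without CerM replicate 1 and 0.006 for the second without vehicle replicate 1.

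The ratios that involve St8sia1 varied more. St8sia1 stood to St3gal5, whose product it uses, at 0.119, 0.155 and 0.108 in CerM, against 0.0724, 0.113 and 0.124 in vehicle. The log2 difference was 0.33, with means of −2.99 ± 0.27 in CerM libraries and −3.31 ± 0.42 in vehicle libraries (SD, n = 3 each; exact permutation p = 0.5), and it was 0.09 without vehicle replicate 1. B4galnt1 stood to St8sia1, which competes with it for GM3, at 6.99, 6.96 and 7.64 in CerM, against 10.3, 7.98 and 6.90 in vehicle. Here vehicle replicate 1 was the highest and vehicle replicate 3 the lowest library. The log2 difference was −0.20 (exact permutation p = 0.4), and −0.05 without vehicle replicate 1. Adjusted over the 4 ratios by the Benjamini-Hochberg method, each exact permutation p was 0.6, and 3 against 3 libraries cannot give a p below 0.1.

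**Figure D3:**
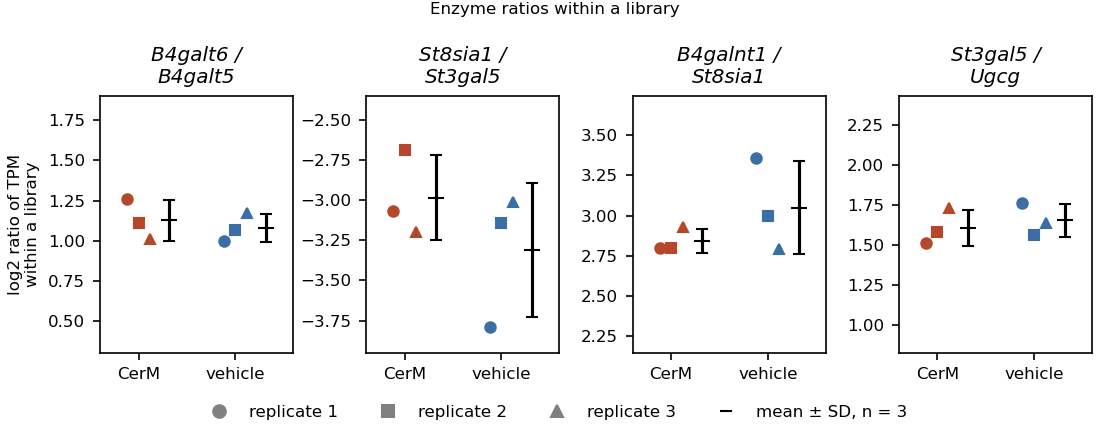
Log2 ratio of the TPM of 2 enzymes in the same library (vertical axes, all spanning 1.6 log2 units) in CerM (red, left) and vehicle (blue, right), with marker shape giving the replicate number and black bars the mean ± SD of 3 libraries. Groups overlap in all 4 panels, and vehicle replicate 1 stands apart for St8sia1 over St3gal5 at −3.79.

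The 9 genes did not vary as a block across the libraries. The SD of log2(TPM + 1) over the 6 libraries ran from 0.05 for Ugcg to 0.25 for St8sia1, with a median of 0.12 for the 9 genes and 0.19 for all tested genes. CerM replicate 2 was the highest library for 5 of the 9 genes (B4galt5, B4galnt1, St8sia1, B3galt4 and St3gal2), and it was also the highest for 41.1% of all tested genes. Vehicle replicate 1 was the lowest library for 4 of the 9 (B4galt5, B4galt6, St8sia1 and St3gal2) and the highest for 3 (Ugcg, St3gal5 and St8sia5). Over all tested genes it was the lowest for 32.8% and the highest for 16.9%. Members thus moved in opposite directions in the library with raised neocortex markers, where St3gal5 was 0.19 above its mean and St8sia1 0.40 below its mean on the log2(TPM + 1) scale.

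**Figure D4:**
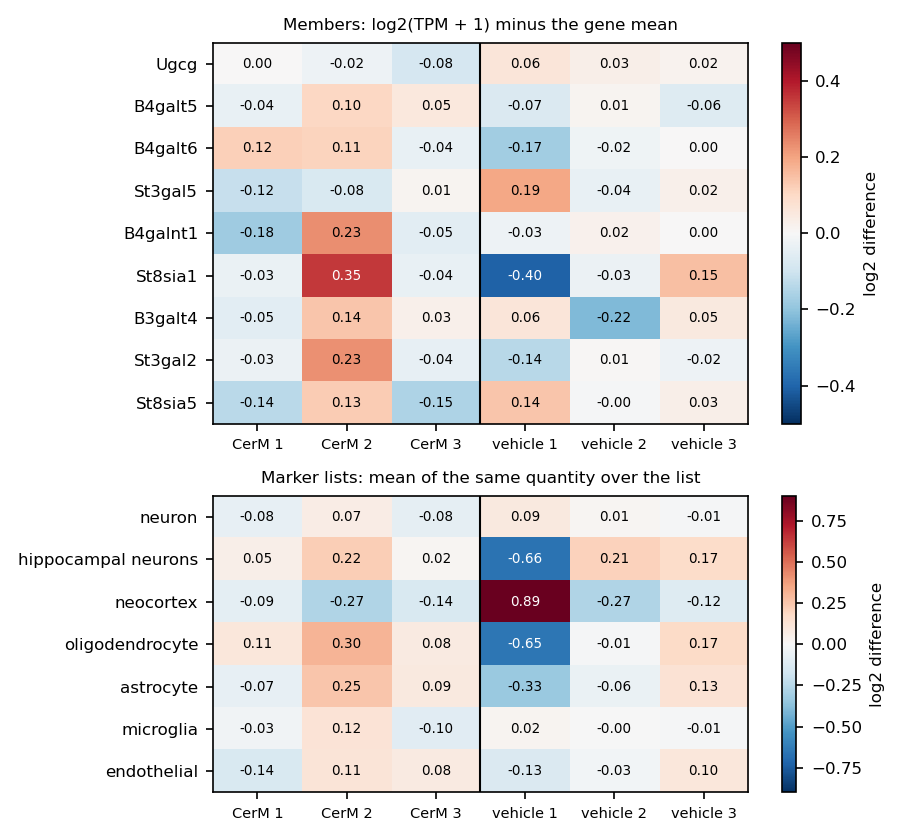
Difference of log2(TPM + 1) from the gene's mean over 6 libraries for the 9 genes (top), and the mean of the same quantity over marker lists for 7 cell or tissue types (bottom), by library with CerM left of vehicle. Choroid plexus (−2.46 to 2.42) and fat tissue (5.01 in CerM replicate 3) lie beyond the colour scale and are not drawn. The strongest cells of the top panel are St8sia1 in vehicle replicate 1 (−0.40) and CerM replicate 2 (0.35), and those of the drawn marker lists lie in vehicle replicate 1, where neocortex markers stand at 0.89.

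For the 3 most variable of the 9 genes, the tested genes with the closest profile were found as those with the smallest root mean square difference of centred log2(TPM + 1) over the 6 libraries. For St8sia1 these were Arel1 (0.0217) and Coro1c (0.0269), for B4galnt1 Gpr158 and Tyw1 (0.0169 each), and for St8sia5 Chst10 (0.0163) and Eif3k (0.0165). Arel1 had 49.21, 65.09 and 49.22 TPM in CerM, against 39.05, 50.82 and 58.27 TPM in vehicle, and was likewise highest in CerM replicate 2 and lowest in vehicle replicate 1. The likeness describes these 6 libraries only.

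Other genes that make, feed or break down glycosphingolipids did not pass the test either. Of 17 other glycosphingolipid synthesis genes, 13 reached the TPM minimum, and 0 were called. Of these 13, 9 lay above 0 and 4 below, and their median was 0.15 on the log2 scale. Ugt8a and Fa2h, which make galactosylceramide and its hydroxylated fatty acid for myelin, had the smallest unadjusted p, with log2 fold changes of 0.36 ± 0.19 (SE) and 0.34 ± 0.21. Both were lowest in vehicle replicate 1, the library with the lowest oligodendrocyte markers, at 16.17 TPM for Ugt8a and 22.18 TPM for Fa2h, and the part of that content was not tested. St6galnac6, a sialyltransferase of the alpha-series gangliosides, had the highest level of the list, at 83.7 ± 9.92 TPM in CerM and 87.7 ± 3.60 TPM in vehicle (SD, n = 3 each). St8sia6, B4galnt2, B3gnt5 and Gbgt1 were below the minimum, with means of 0.08 to 0.81 TPM over the 6 libraries.

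Of 16 breakdown genes, all of which reached the TPM minimum, 0 were called. Of these 16, 10 lay above 0 and 6 below (median log2 fold change 0.04). Psap, whose product is cut into the saposins that assist glycolipid hydrolases, had by far the highest level, 1362 ± 106.3 TPM in CerM and 1321 ± 156.4 TPM in vehicle (SD, n = 3 each). Scarb2, a lysosomal membrane protein, and Galc, the galactosylceramidase, had the smallest unadjusted p, at 0.14 ± 0.10 (SE) and 0.22 ± 0.19. No member of the list had groups that did not overlap, against 7.30% of all tested genes, and a count of 0 in 16 is close to that background.

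Of 12 genes for sugar donors and their Golgi transport, 0 were called, 5 lay above 0 and 7 below, and the median log2 fold change was −0.05. Galt, an enzyme of galactose use, had the smallest unadjusted p, with 36.07, 50.35 and 40.65 TPM in CerM against 59.90, 51.46 and 46.98 TPM in vehicle. CerM replicate 2 overlapped the vehicle libraries, and the log2 fold change was −0.32 ± 0.15 (SE; limma adjusted p = 0.989). Cmas, which activates sialic acid for every sialyltransferase named here, had 75.54, 75.50 and 72.40 TPM in CerM against 84.64, 82.40 and 76.50 TPM in vehicle. Its groups did not overlap, as for 4.04% of all tested genes in that direction, and its log2 fold change was −0.12 ± 0.08 (SE), with a 95% confidence interval of −0.32 to 0.07. Of 10 genes for ceramide and glycolipid transfer and for Golgi organisation 0 were called, with 7 above 0, 3 below and a median of 0.06. Gltp, the glycolipid transfer protein, had 45.7 ± 3.19 TPM in CerM and 39.0 ± 8.18 TPM in vehicle, while the log2 fold changes of Golph3l and of Vapa, the most abundant, were 0.13 ± 0.12 (SE) and −0.04 ± 0.16.

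**Figure D5:**
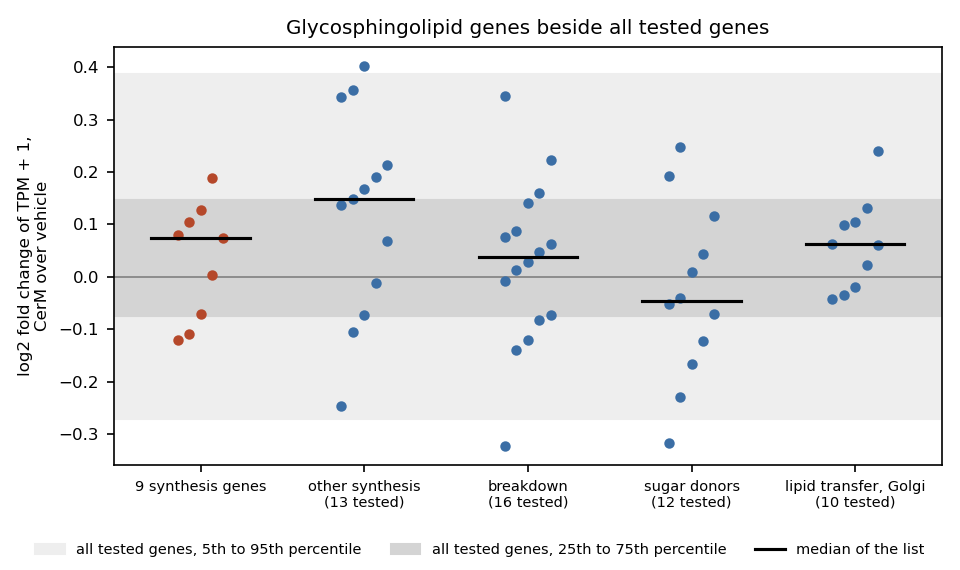
Log2 fold change of TPM + 1, CerM over vehicle (vertical axis), for each tested gene of the 9 synthesis genes (red) and 4 related lists (blue), with black bars at list medians and grey bands for all tested genes. The 9 synthesis genes lie between −0.12 and 0.19, inside the band from −0.27 to 0.39 that holds the 5th to 95th percentile of all tested genes.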

How the data were processed

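Per the labels' protocols, hippocampal RNA was isolated with TRIzol, cleared of genomic DNA with DNase I and turned into TruSeq libraries. The submitters' processing notes list HISAT2, StringTie, RSEM and the build GRCm39 without version or role. The authors deposited TPM values with 2 decimals for 55414 genes, with totals of 993379 to 995403 per library, and depth per library is unknown. Columns were matched to samples by title. Genes averaging 1 TPM or more across all 6 libraries (14916) were tested with limma 3.58.1 in R 4.3.3 on log2(TPM + 1), with a variance trend, two-sided, and adjusted over all tested genes. Fold changes are CerM over vehicle on that scale, which understates changes of low genes. Ratios were set against each other with an exact two-sided permutation test in Python 3.11.15 with scipy 1.17.1. Only the limma test was run on simulated libraries with known changes, and the permutation test was not. Genes varied independently in that simulation, without shared tissue content, and its outcome is not reported here. The 9 genes, lists and tests were chosen with earlier results of these data known. Named genes were the 9, and from each list the 2 with the smallest unadjusted p and the 1 with the highest level, and the 2 closest profiles for each of the 3 most variable of the 9. A gene of the breakdown list is not reported here, and symbols that name no row of the table were left out. Exon overlaps came from GENCODE M21 (GRCm38), an older build than GRCm39, matched by Ensembl identifier, and promoters from RefSeq GRCm38.p6. The alternatives tried were pseudocounts of 0.1 and 0.5, TPM minimums of none and 5, and other choices of scaling, variance model, sample weights, pairing and the libraries used.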

Additional observations from a re-analysis of the deposited data

How the results depend on the processing

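Over 143 values of the 9 genes under alternative settings, 136 kept their direction and 7 turned it, and the smallest limma adjusted p was 0.389 (St8sia5), so 0 of the 9 genes were called under any setting run. With all 6 libraries kept, the values that turned were B3galt4 at −0.019 with quantile normalization, B4galnt1 at −0.026 with median-ratio scaling and −0.07 with sample weights, and St3gal2 at −0.005 with sample weights. With each library left out in turn, B4galnt1 ran from −0.113 to 0.092 (below 0 without CerM replicate 2 or, at −0.01, vehicle replicate 1) and B3galt4 from −0.017 (without vehicle replicate 2) to 0.122, and the other 7 genes kept their sign. B3galt4 has no value at a minimum of 5 TPM. The count of called genes was 0 with all 6 libraries under each setting run. At an unadjusted limma p below 0.05 sample weights had 2696 of 14916 genes, far more than any other such setting. The other settings with all 6 libraries had from 280 of 11043 genes (minimum of 5 TPM) to 824 of 27676 (no minimum). The count of called genes ran from 1 to 8 with single libraries left out. It was 1 without vehicle replicate 1 and CerM replicate 3 together, and none of these called genes is in a list named here. Ratio differences with single libraries left out ran from −0.02 to 0.106 for B4galt6 over B4galt5, −0.109 to 0.006 for St3gal5 over Ugcg, 0.089 to 0.477 for St8sia1 over St3gal5 and −0.334 to −0.046 for B4galnt1 over St8sia1.

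Nothing in the labels pairs libraries of the same number. Deviations from the group means correlated across genes at 0.008, 0.196 and 0.222 for numbers 1 to 3. Libraries of different numbers correlated at −0.207 to 0.065. Vehicle replicate 1 correlated best with CerM replicate 2, at 0.065, and every other library correlated best with its own number. The numbers were not taken as pairs because the labels do not pair them. With the number as a replicate block, 0 genes were called, and the 9 genes had adjusted p-values of 0.98 to 0.999. The paired ratio differences were 0.048, 0.326, −0.203 and −0.048 in the order B4galt6 over B4galt5, St8sia1 over St3gal5, B4galnt1 over St8sia1 and St3gal5 over Ugcg, with exact sign-flip permutation p-values of 0.75, 0.5, 0.5 and 1.0, where the smallest possible is 0.25. Without read depth, 3 libraries per group limit the precision.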
